A study of Mus musculus with 4 samples.

Results

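The ligands, receptors and latent binding proteins of transforming growth factor beta (TGF-beta) were followed in right ventricle from adult mouse hearts labelled Ezh2-deficient or wild type. The 10 genes were taken by symbol: the ligand genes Tgfb1, Tgfb2 and Tgfb3, the receptor genes Tgfbr1, Tgfbr2 and Tgfbr3, and the latent binding protein genes Ltbp1, Ltbp2, Ltbp3 and Ltbp4. Each symbol matched 1 row of a deposited table of 29595 rows, and all 10 were among the 16128 rows with enough reads to be tested. The hearts were 2 Ezh2-deficient and 2 wild-type ones, all adult and all on a mixed C57BL/6 background. The Ezh2-deficient hearts are called mutant 1 and mutant 3, and the others wild type 1 and wild type 2, as numbered in their labels. Ezh2 is a histone methyltransferase and carries the enzyme activity of Polycomb repressive complex 2, which keeps genes silent. The labels used here do not say how or in which cells of the heart Ezh2 was removed.

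TGF-beta is secreted as an inactive complex in which the mature dimer stays wrapped in its own propeptide. A latent TGF-beta binding protein is usually linked to that propeptide and anchors the complex in fibrillin-rich matrix, from which integrins, proteases or thrombospondin release the active ligand. Active ligand binds the type II receptor, which recruits and phosphorylates the type I receptor, and this in turn phosphorylates Smad2 and Smad3. In the heart the pathway is best known for driving fibroblasts to make matrix and for the growth of valves and outflow tract.

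The libraries held 21707784 (mutant 1), 23853394 (mutant 3), 20093783 (wild type 1) and 18177642 (wild type 2) reads. They were made from polyadenylated RNA with a nuclease step that removes part of the abundant sequences. The Ezh2 row held 73 and 70 reads for mutants against 77 and 67 for wild types, and so does not separate the groups. The rows of the Y chromosome held 2530 and 2240 reads in mutants and 11 and 6 in wild types, and the Xist transcript held 64 and 17 against 638 and 3227. Sex and genotype cannot be told apart in any result below. Summed markers of heart muscle cells stood at 39225 to 44153 CPM in mutants and 33202 to 36540 in wild types. Of the 6 genes, 4 had a log2 fold change (mutant over wild type) above 0, and the median was 0.14. The ventricular light chain gene Myl2 alone stood at 16947 and 18459 CPM in mutants and 10871 and 8436 in wild types. Myh6 (-0.30) and Ryr2 (-0.60) went the other way. Of 13 lists of cell type markers, the summed level was above both wild types in both mutants for 6. These were heart muscle, fibroblast, red cell (2 of 4 genes found), atrial, Schwann cell and adipocyte. Sums were below for 2 (smooth muscle and epicardium), and overlapped for 5 (endothelial, pericyte, macrophage, platelet and fast skeletal muscle). Of single tested rows 44.8% did not overlap, and the share for such sums was not computed. A sum can hide genes that went the other way. The median log2 fold change of the fibroblast list was 0.00, and 1 of 4 epicardium genes, Wt1, lay above 0. CPM is the field's unit of reads scaled to a common library size, here after TMM scaling, which sets the bulk of genes equal between libraries.

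No gene of the 10 was called at an adjusted p under 0.05 by edgeR's quasi-likelihood method over all rows, where 21 of 16128 rows (0.13%) were called, 0.105% of the rows as higher (17) and 0.0248% as lower (4) in mutants. With scaling by total reads alone the split was 76 higher and 80 lower, and the median of all rows shifted by -0.28. Unadjusted, 3 had a p under 0.05, Ltbp2 and Tgfb2 with higher and Ltbp1 with lower levels in the mutants, and 10.9% of all tested rows were under that limit. DESeq2 called 1 of the 10, Ltbp2, and 1.41% of all rows. By limma-voom 0 of the 10 and 0.0868% of all rows were called. The groups did not overlap for 5 genes, with the mutants above for Ltbp2 and Tgfb2 and below for Ltbp1, Tgfbr2 and Tgfbr3. Over all tested rows 44.8% did not overlap, so 5 of 10 is close to the general share. The median log2 fold change of the 10 was -0.01, with 5 above and 5 below 0, and that of all tested rows was 0.00. RNA of a whole ventricle was measured, so fewer cells of a type and less RNA per cell cannot be told apart.

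**Figure D1:**
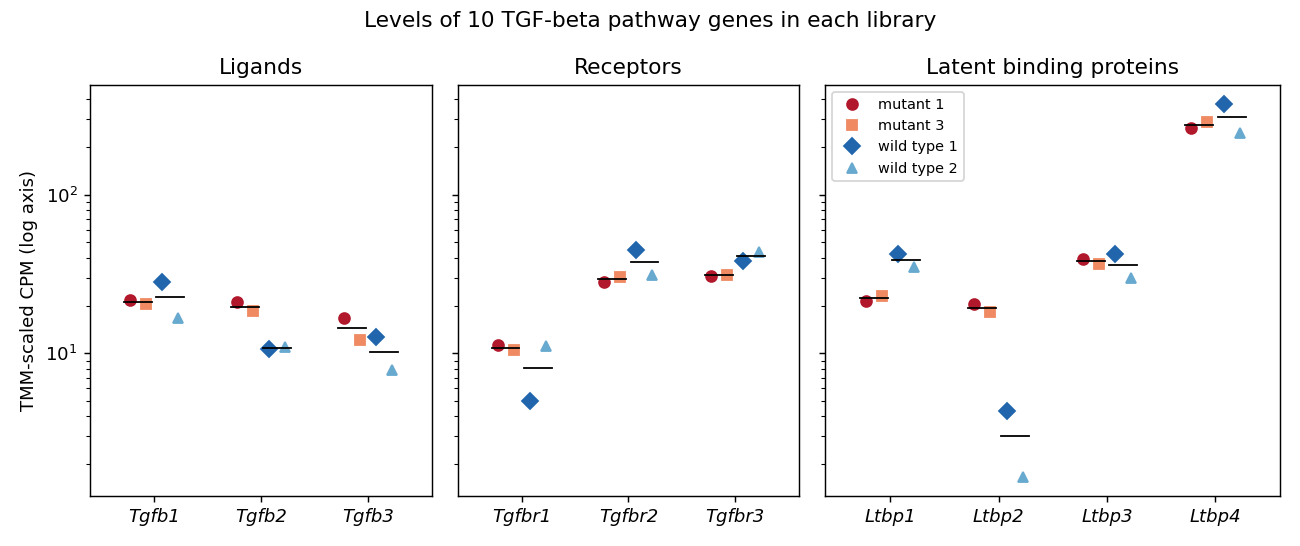
TMM-scaled CPM (log axis) of the 10 genes in each of the 4 libraries, grouped by role; symbols are single libraries and black bars the mean of each group of 2. The mutants stand apart upward in Ltbp2 (18.2 and 20.6 against 1.66 and 4.32) and Tgfb2, and downward in Ltbp1.

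**Figure D2:**
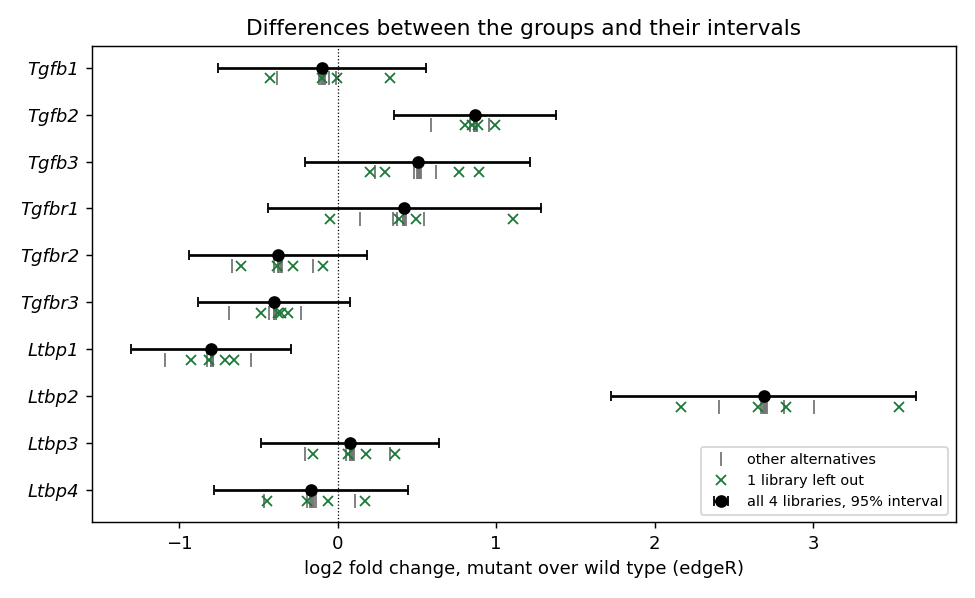
Log2 fold change of each gene, mutant over wild type, from edgeR with its 95% interval (black) and, just under it, the estimates with 1 library left out (green crosses) and under the other alternatives (grey ticks). The interval lies wholly above 0 for Ltbp2 and Tgfb2 and wholly below 0 for Ltbp1, before any adjustment for the number of rows tested.

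Start-site sequence was read for the 3 genes with an unadjusted p under 0.05. RefSeq windows of 300 bases (GRCm38.p6), from 250 before to 50 after an annotated start, matched 8 of the 10 genes with 12 windows, all but Tgfb3 and Tgfbr3. Those printed set side by side the starts of Ltbp2, of a ligand gene with the same direction and of a family member with the opposite direction. Windows are chr12:84876442-84876741 for Ltbp2 (minus strand), chr1:186705940-186706239 for Tgfb2 (minus strand) and chr17:75005279-75005578 for the first of 2 Ltbp1 windows (plus strand). They are written 5′ to 3′ on the strand of the gene, and capitals mark a match to any of 6 motifs searched on both strands. The motifs were the core promoter box TATAAA of general transcription factors, the cAMP response element TGACGTCA, the E-box CACGTG bound by basic helix-loop-helix factors, the AP-1 site TGANTCA, and the Smad binding motifs GTCTAGAC and AGCCAGACA. They do not contain each other.
Ltbp2: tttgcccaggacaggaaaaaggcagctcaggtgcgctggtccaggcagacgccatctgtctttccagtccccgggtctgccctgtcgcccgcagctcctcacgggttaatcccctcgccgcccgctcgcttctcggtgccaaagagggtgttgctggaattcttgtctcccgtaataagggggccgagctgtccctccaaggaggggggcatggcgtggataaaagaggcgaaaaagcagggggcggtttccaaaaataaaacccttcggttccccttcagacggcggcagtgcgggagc
Tgfb2: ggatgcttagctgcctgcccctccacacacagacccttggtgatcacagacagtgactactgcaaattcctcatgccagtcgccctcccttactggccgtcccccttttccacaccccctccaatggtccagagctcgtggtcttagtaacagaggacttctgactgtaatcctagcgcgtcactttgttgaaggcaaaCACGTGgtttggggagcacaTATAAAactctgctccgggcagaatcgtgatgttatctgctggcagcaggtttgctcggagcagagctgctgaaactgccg
Ltbp1: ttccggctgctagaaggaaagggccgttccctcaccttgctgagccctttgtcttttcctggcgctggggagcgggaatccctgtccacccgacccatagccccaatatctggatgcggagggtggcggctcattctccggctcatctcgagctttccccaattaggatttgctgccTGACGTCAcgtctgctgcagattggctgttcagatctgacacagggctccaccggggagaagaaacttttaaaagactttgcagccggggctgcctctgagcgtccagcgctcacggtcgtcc

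The Tgfb2 window held the core promoter box 31 bases and the E-box 51 bases before the start, and the Ltbp1 window held the cAMP response element 73 bases before it. The Ltbp2 window held none of the 6, as was so for 9 of the 12 windows, and that of Ltbp3 held the AP-1 site 6 bases before the start. Of 32851 mouse windows of this length, 13.6% held the core promoter box, 7.15% the E-box, 1.79% the cAMP response element and 7.81% the AP-1 site. The motifs for Smad proteins were rare everywhere, at 0.213% and 0.387% of windows, and no window of the 8 genes held either. The number of CpG dinucleotides was 20 for Ltbp2, 10 for Tgfb2 and 17 for Ltbp1, against a median of 7 over all windows. In the other windows of the 8 genes it ran from 3 for Ltbp3 to 39 for Ltbp4, with 7 in the second Ltbp1 window. These matches describe letters and say nothing of binding.

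Tgfb2 was the ligand gene with the clearest gap. It encodes the ligand that depends most on the co-receptor betaglycan and that is needed for outflow tract and valve formation in mouse embryos. The row (mm9 chromosome 1, 188447527 to 188529868, minus strand) stood at 20.9 and 18.4 CPM in mutant 1 and mutant 3, and at 10.6 and 10.9 CPM in wild type 1 and wild type 2, from 217 to 448 reads. The groups did not overlap, and the wild types were nearly equal. The means were 19.6 ± 1.80 and 10.8 ± 0.195 CPM (SD, n = 2), a ratio of 1.82. The log2 fold change of 0.86 ± 0.22 (SE), with a 95% interval of 0.36 to 1.37, had an adjusted p of 0.235 in edgeR and 0.170 in DESeq2.

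Without wild type 1 the adjusted p of Tgfb2 in edgeR was 0.0185, and without wild type 2 it was 0.00870, while over all 15 alternatives it ran from 0.00870 to 1.00. Those fits called 10.8% and 21.6% of all tested rows, so many rows passed along with Tgfb2. The estimate itself lay between 0.59 and 0.99 in every alternative.

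The other ligand genes did not separate the groups. Tgfb1, the most studied ligand and the main one of fibrosis (mm9 chromosome 7, 26472021 to 26490015, plus strand), stood at 21.7 and 20.4 CPM in mutants and 28.3 and 16.8 in wild types. Both mutants lay between the wild types, which differed by 1.69 times. Its log2 fold change was -0.10 with a 95% interval of -0.75 to 0.56, so a change of up to 1.69-fold down or 1.47-fold up is within the error. Tgfb3, a ligand known for its part in palate closure (mm9 chromosome 12, 87397694 to 87419484, minus strand), stood at 16.8 and 12.2 CPM in mutants and 12.6 and 7.80 in wild types. Mutant 3 was below wild type 1, so the groups overlapped (log2 fold change 0.50, 95% interval -0.20 to 1.21, edgeR adjusted p = 0.590). Without wild type 1 the estimate for Tgfb3 was 0.89 with an adjusted p of 0.0350, in a range over the alternatives of 0.0350 to 1.00. The Tgfb3 row shares 5150 bases with a row on the other strand, mKIAA0998, which held 149 to 231 reads, and reads in the shared part may belong to either.

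Ratios of reads between ligands do not depend on the scaling of the libraries. There were 0.963 and 0.900 reads of Tgfb2 per read of Tgfb1 in mutants and 0.376 and 0.652 in wild types. Tgfb3 gave 0.774 and 0.597 reads per read of Tgfb1 in mutants and 0.446 and 0.465 in wild types. Both ratios were above both wild types in both mutants. Reads of Tgfb2 per read of Tgfb3 were 1.24 and 1.51 for mutants and 0.845 and 1.40 for wild types, and overlapped. With 2 against 2 libraries, an exact permutation test cannot give a p under 0.333. The share of all gene pairs whose read ratios separate the groups was not computed, here or for the ratios below. Summed over the 3 ligand genes, levels were 59.4 and 50.9 CPM for mutants and 51.5 and 35.5 CPM for wild types, so the totals overlapped. Per transcript length, Tgfb1 made up 52.4% and 56.6% of the ligand level in mutants and 69.1% and 63.4% in wild types. Tgfb2 made up 21.5% and 21.7% in mutants and 11.1% and 17.6% in wild types.

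No receptor gene passed the test, and for Tgfbr2 and Tgfbr3 both mutants lay below both wild types. Tgfbr1, the type I receptor kinase also known as Alk5 (mm9 chromosome 4, 47366177 to 47427796, plus strand), stood at 11.2 and 10.4 CPM in mutants and at 5.03 and 11.2 in wild types. Wild type 1 alone was low, at 0.451 times wild type 2, a gap wider than that of 88.1% of tested rows. The log2 fold change was 0.42 with a 95% interval of -0.44 to 1.28 (edgeR adjusted p = 0.714). It was -0.045 without wild type 1 and 1.10 without wild type 2, with adjusted p of 0.913 and 0.00604 in a range over the alternatives of 0.00604 to 1.00. The estimate for Tgfbr1 thus rests on which wild type is used.

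Tgfbr2, the type II receptor kinase that binds ligand first (mm9 chromosome 9, 115996825 to 116084407, minus strand), stood at 28.2 and 30.2 CPM in mutants and 44.6 and 31.1 in wild types. Both mutants were below both wild types, but mutant 3 was still at 0.972 times wild type 2. The log2 fold change was -0.37 (95% interval -0.94 to 0.19, edgeR adjusted p = 0.617). Without wild type 2 it was -0.61 with an adjusted p of 0.0144, in a range over the alternatives of 0.0144 to 1.00, and without wild type 1 it was -0.09. Tgfbr3, which encodes betaglycan, the co-receptor that presents ligand to the type II receptor (mm9 chromosome 5, 107535589 to 107718539, minus strand), stood at 30.7 and 31.2 CPM in mutants and 38.4 and 43.3 in wild types. The groups did not overlap and the mutants were nearly equal, at means of 31.0 ± 0.376 and 40.9 ± 3.49 CPM (SD, n = 2). The log2 fold change of -0.40 ± 0.21 (SE) had a 95% interval of -0.88 to 0.08 and an edgeR adjusted p of 0.534. Reads of Tgfbr1 per read of Tgfbr3 were 0.365 and 0.334 for mutants and 0.131 and 0.258 for wild types, and did not overlap. Per read of Tgfbr2, Tgfbr1 gave 0.397 and 0.346 against 0.113 and 0.359 reads, where the groups overlapped. Tgfbr3 gave 1.09 and 1.03 against 0.861 and 1.39 reads per read of Tgfbr2, and these overlapped too. Summed over the 3 receptor genes, levels were 70.1 and 71.9 CPM in mutants and 88.0 and 85.6 in wild types.

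Ltbp2 showed the widest gap among the 10 genes. Its product is a large fibrillin-binding matrix protein which, unlike its relatives, does not bind latent TGF-beta. The row (mm9 chromosome 12, 86124162 to 86217445, minus strand) had 441 and 359 reads in mutants and 97 and 33 in wild types. That is 20.6 and 18.2 CPM in mutant 1 and mutant 3, and 4.32 and 1.66 CPM in wild type 1 and wild type 2. Both mutants were at least 4.21 times and at most 12.4 times as high as a wild type in the 4 possible pairs. The group means were 19.4 ± 1.68 and 2.99 ± 1.88 CPM (SD, n = 2), a ratio of 6.49. The log2 fold change was 2.69 ± 0.42 (SE), with a 95% interval of 1.72 to 3.65 and an adjusted p of 0.0798 in edgeR's test. It thus stayed just outside the threshold, at rank 43 by p and 74 by size among all tested rows.

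The call for Ltbp2 depended on the test and its settings, and the size of the estimate on the libraries used. Its adjusted p was 3.61e-07 in DESeq2 and 0.0615 in limma-voom, and over 15 alternatives it ran from 3.61e-07 to 0.117, with 8 of them under 0.05. Beside DESeq2, the call was made with no filter on low counts (1.44% of all rows called), with scaling by total reads (0.967%) and after correction for GC content and transcript length (0.609%). Leaving out any 1 of the 4 libraries brought it under the threshold, with estimates of 2.65 without mutant 1, 2.83 without mutant 3, 3.54 without wild type 1 and 2.17 without wild type 2. Those fits rest on a single heart in 1 group and called 0.415%, 0.67%, 10.8% and 21.6% of all rows in the same order. The wild types differed from each other by 2.60 times, a gap wider than that of 91.4% of tested rows, while the mutants differed by 1.13 times.

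Atrial marker genes followed the same order of libraries as Ltbp2, and so did the summed adipocyte and Schwann cell markers. The Schwann cell list stood at 6.58 and 4.11 CPM in mutant 1 and mutant 3, and at 3.65 and 3.47 in wild type 1 and wild type 2. The share of all tested rows with this order was not computed. All 4 listed atrial markers were found and none was at 0. Their summed level was 3084 to 3453 CPM in mutants and 178 to 431 in wild types, most of it from Nppa, which is also a stress gene of the ventricle. Myl7, the atrial light chain gene, stood at 77.4 and 61.8 CPM in mutant 1 and mutant 3 and at 29.6 and 2.72 in wild type 1 and wild type 2. The adipocyte list gave 4.11 to 4.43 CPM in mutants and 0.151 to 2.72 in wild types, with Lep at 0 in every library. Fast skeletal muscle markers summed to 156 CPM in mutant 1 and 1.91 to 3.30 in the other libraries. The part of atrial, fat or skeletal muscle tissue, or of Schwann cells, in the level of Ltbp2 was not tested.

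Genes whose pattern over the 4 libraries lay nearest to that of Ltbp2 were muscle genes and a secreted carboxypeptidase-like gene. Likeness was the Euclidean distance between log2 CPM values centred per gene. The search covered 10756 tested autosomal rows with a mean of at least 1 CPM, and left out rows with clone-type names. The nearest were Acta1, skeletal actin, at a distance of 0.53, then Myot, a Z-disc protein, at 0.53 and Cpxm2 at 0.56. Acta1 stood at 1290 and 1653 CPM in mutants and 416 and 117 in wild types. Cpxm2 stood at 29.1 and 18.7 against 4.59 and 2.77 CPM. With only 4 libraries, the distance is a description.

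Ltbp1 was the latent binding protein gene with lower levels in the mutants. Its product is the founding member of the family and carries latent TGF-beta to the matrix. The row (mm9 chromosome 17, 75404869 to 75791109, plus strand) stood at 21.4 and 23.0 CPM in mutant 1 and mutant 3, and at 42.2 and 35.0 CPM in wild type 1 and wild type 2, from 454 to 947 reads. The groups did not overlap, and a mutant was between 0.507 and 0.658 times a wild type in the 4 pairs. The means were 22.2 ± 1.17 and 38.6 ± 5.09 CPM (SD, n = 2), and the wild types were 1.74 times as high. The log2 fold change of -0.80 ± 0.22 (SE), with a 95% interval of -1.30 to -0.29, had an adjusted p of 0.268 in edgeR and 0.145 in DESeq2. Without wild type 1 or wild type 2 the edgeR adjusted p was 0.0225 and 0.00179, in a range over the alternatives of 0.00179 to 1.00. The estimate lay between -1.09 and -0.55 in every alternative, the latter after correction for GC content and transcript length.

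Both mutants were above both wild types for Ltbp2 and below them for Ltbp1, so the ratio of these genes had to separate the groups. There were 0.963 and 0.791 reads of Ltbp2 per read of Ltbp1 in mutants and 0.102 and 0.0475 in wild types. Reads of Ltbp1 per read of Ltbp4 were 0.0815 and 0.0799 in mutants and 0.113 and 0.143 in wild types. Ltbp4 alone made up 77.8% and 80.2% of the family's level per transcript length in mutants and 82.1% and 80.2% in wild types, with the other 3 genes sharing the rest. Summed over the 3 latent binding protein genes other than Ltbp4, levels were 81.5 and 77.9 CPM for mutants and 89.0 and 66.3 CPM for wild types, which overlap. The ratio of Ltbp2 to Ltbp1 adds no support beyond the values of the genes themselves. Both of the read ratios separated the groups without any scaling between libraries, as a description of these 4 hearts.

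**Figure D3:**
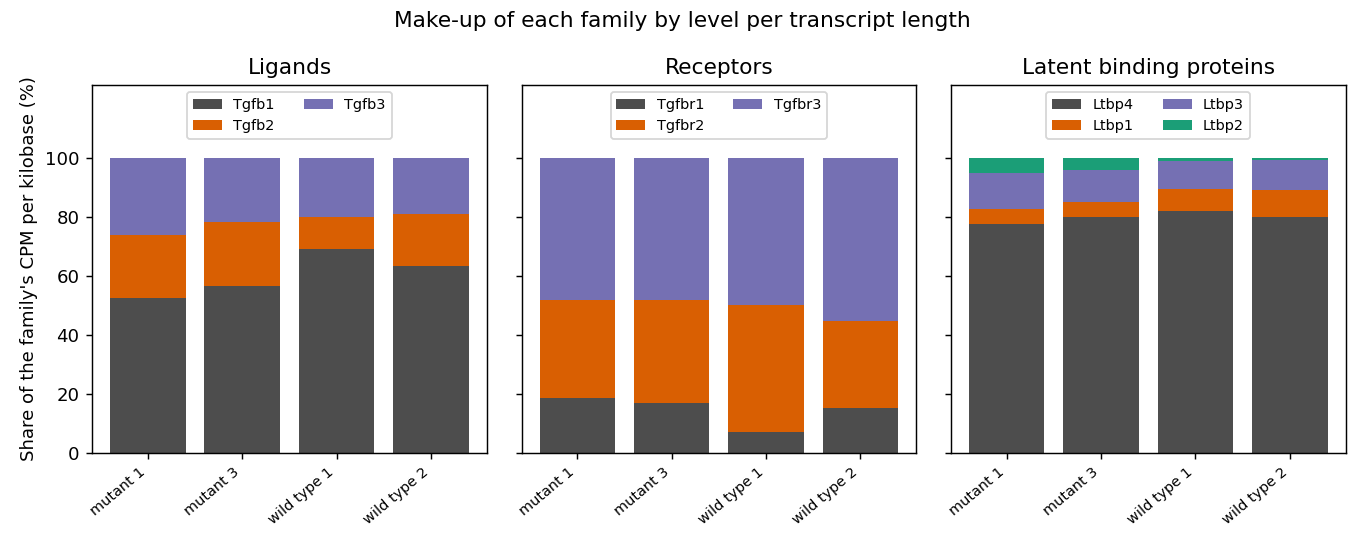
Make-up of the ligand, receptor and latent binding protein families in each library, as each gene's share (%) of the family's summed CPM per kilobase of transcript. Tgfb1 takes a smaller share of the ligand bar in the mutants (52.4% and 56.6%) than in wild types (69.1% and 63.4%), and the Ltbp2 segment is visible in the mutants at 4.86% and 4.03% and barely in the wild types at 0.753% and 0.434%.

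Ltbp3 and Ltbp4 did not separate the groups. Ltbp3, whose product is needed for skeletal and tooth growth (mm9 chromosome 19, 5740904 to 5758532, plus strand), stood at 39.5 and 36.7 CPM in mutants and 42.5 and 29.7 in wild types. Its log2 fold change was 0.08 (95% interval -0.48 to 0.64, edgeR adjusted p = 0.930), and it turned to -0.20 when libraries were scaled by total reads alone. A further row, Ltbp-3, lies over 14630 bases of the same gene on the same strand with 483 to 813 reads, and reads there may be counted under either name or both. Ltbp4, whose product supports elastic fibre assembly (mm9 chromosome 7, 28090161 to 28122711, minus strand), stood at 262 and 288 CPM in mutants and 375 and 244 in wild types. Its log2 fold change was -0.17 (95% interval -0.78 to 0.44, edgeR adjusted p = 0.854), and 0.11 after correction for GC content and transcript length. Without wild type 1 the estimates were 0.36 for Ltbp3 and 0.17 for Ltbp4, and without wild type 2 they were -0.16 and -0.45.

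Levels of different genes were compared per kilobase of transcript. The nuclease step lowers abundant transcripts and the transcript lengths come from a later annotation, so the order is approximate. Ltbp4 was highest, at 51.1 ± 3.41 CPM per kilobase (SD, n = 2) in mutants and 57.4 ± 17.2 in wild types, and its range over the 4 libraries did not reach that of any other gene. Tgfb1 came next, at 9.67 ± 0.427 and 10.4 ± 3.75 CPM per kilobase. From Tgfb1 down through Ltbp3, Tgfbr3, Ltbp1, Tgfbr2, Tgfb3, Tgfb2, Ltbp2 and Tgfbr1, the ranges of neighbours overlapped, so no pair of neighbours there is set apart. Ltbp2 took a different place in each group, from 0.442 ± 0.278 CPM per kilobase in wild types, below every other gene there, to 2.86 ± 0.248 in the mutants, above Tgfbr1 at 1.88 ± 0.0926.

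**Figure D4:**
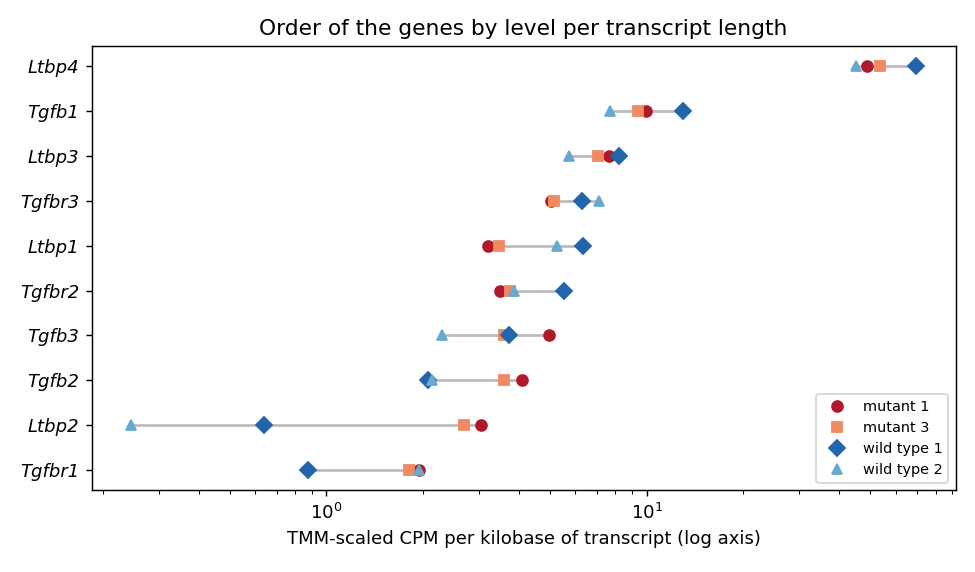
TMM-scaled CPM per kilobase of transcript (log axis) of each gene, in order of the mean over 4 libraries; symbols are single libraries and grey lines the range. Ltbp4 stands alone at the top, between 45.3 and 69.6, and Ltbp2 spans the widest range, from 0.245 to 3.04.

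Other genes of the pathway were taken from 6 lists with 66 genes. Of 63 tested, 0 passed in edgeR over all rows. Unadjusted, 8 were higher and 6 lower with p under 0.05, against 6.49% and 4.38% of all tested rows. DESeq2 called 4, all higher in the mutants, where it called 1.41% of all rows, and limma-voom called 0, against 0.0868% of all rows. Groups did not overlap for 18 above and 17 below, against 22.3% and 22.4% of all tested rows. The median log2 fold change was 0.04.

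The 4 genes called by DESeq2 were all on the list of target genes, Timp1, Postn, Comp and Ctgf. Of 17 listed targets, 11 lay above and 6 below 0, with a median of 0.40. Timp1, an inhibitor of matrix metalloproteinases, stood at 21.0 and 13.9 CPM in mutants and 4.81 and 3.17 in wild types (2.13 ± 0.33 SE on the log2 scale, with an adjusted p of 0.0795 in edgeR and 1.37e-05 in DESeq2). It is X-linked and overlaps Syn1 on the other strand, and Ctgf also overlaps another row on the other strand. Postn, the matricellular protein periostin, stood at 80.6 and 64.0 CPM in mutants and 14.2 and 27.4 in wild types (1.80 ± 0.33, adjusted p = 0.125 in edgeR and 0.000103 in DESeq2). Named after their values were seen, Comp stood at 24.9 and 15.6 against 7.44 and 3.82 CPM, and Ctgf at 159 and 96.9 against 71.8 and 44.7 CPM. The collagen genes on the list did not share this position: Col3a1 stood at 137 and 200.3 CPM in mutants and 327 and 248 in wild types, and Col1a1 at 90.9 and 124 against 177 and 115.

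Markers of fibroblasts and smooth muscle were read beside these targets, and Dcn, Col1a1, Acta2, Tagln and Cnn1 stand both on a marker list and on a pathway list. The 6 fibroblast markers, all detected, summed to 589 to 633 CPM in mutants and 482 to 547 in wild types, mainly through Dcn. Their median log2 fold change was 0.00, with 3 of the 6 above 0. The lowest were Col1a1 (-0.45) and Ddr2 (-0.34), and Pdgfra stood at 31.5 and 27.6 against 30.8 and 28.9 CPM. The 5 smooth muscle markers, none at 0, summed to 178 to 187 CPM in mutants and 223 to 245 in wild types, with Acta2 at 68.6 and 66.5 against 136 and 90.9 CPM and Smtn at 74.6 and 82.0 against 77.5 and 102 CPM. The log2 fold changes of the other 3, Myh11 (0.18), Tagln (0.37) and Cnn1 (0.44), lay above 0, and the median of the list was 0.18. The part of these cells in the levels of the targets was not tested.

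Of 13 tested genes of latency and activation, 8 lay above and 5 below 0 (median 0.20), while Mmp9 and Plg had too few reads to be tested and Lrrc32 was not analysed here. Thbs1, which encodes thrombospondin 1, an activator of latent TGF-beta, stood at 12.7 and 11.1 CPM in mutants and 6.72 and 6.89 in wild types (0.81 ± 0.24 SE, edgeR adjusted p = 0.307). Itgb6, a chain of an activating integrin, stood at 11.0 and 18.0 against 24.4 and 22.9 CPM (edgeR adjusted p = 0.416). Of 8 matrix genes that bind TGF-beta or its complex, 5 lay above 0 (median 0.24). Dcn, the proteoglycan decorin, stood at 416 and 425 against 291 and 279 CPM (edgeR adjusted p = 0.409), and Bgn, biglycan, at 307 and 291 against 289 and 169 CPM.

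Of 7 transducers, 6 lay below 0 (median -0.26), and for 5 both mutants were below both wild types, a position held by 22.4% of all tested rows. Smad4, the partner shared by all receptor-activated Smads, stood at 17.97 and 17.95 CPM in mutants and 27.9 and 23.6 in wild types (-0.52 ± 0.22 SE, edgeR adjusted p = 0.446). Tab1, an activator of the kinase Tak1 (row Map3k7ip1), stood at 9.57 and 10.1 against 16.0 and 13.0 CPM (edgeR adjusted p = 0.447). Of 12 inhibitors, 6 lay above and 6 below 0 (median -0.04). Tgif1, a Smad corepressor, stood at 3.92 and 3.14 against 2.09 and 1.76 CPM, and Smurf2, a ubiquitin ligase for Smads and receptors, at 12.0 and 9.23 against 14.6 and 12.9 CPM. Of 6 genes on the list headed co-receptors, not all of which act as co-receptors, 2 lay above and 4 below 0 (median -0.15). Vasn stood at 7.37 and 6.69 against 10.8 and 6.74 CPM, and Nrp1 at 97.5 and 94.1 against 92.4 and 134 CPM. Vasn overlaps Coro7, and Nrp1 an unnamed transcript row, on the other strand.

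**Figure D5:**
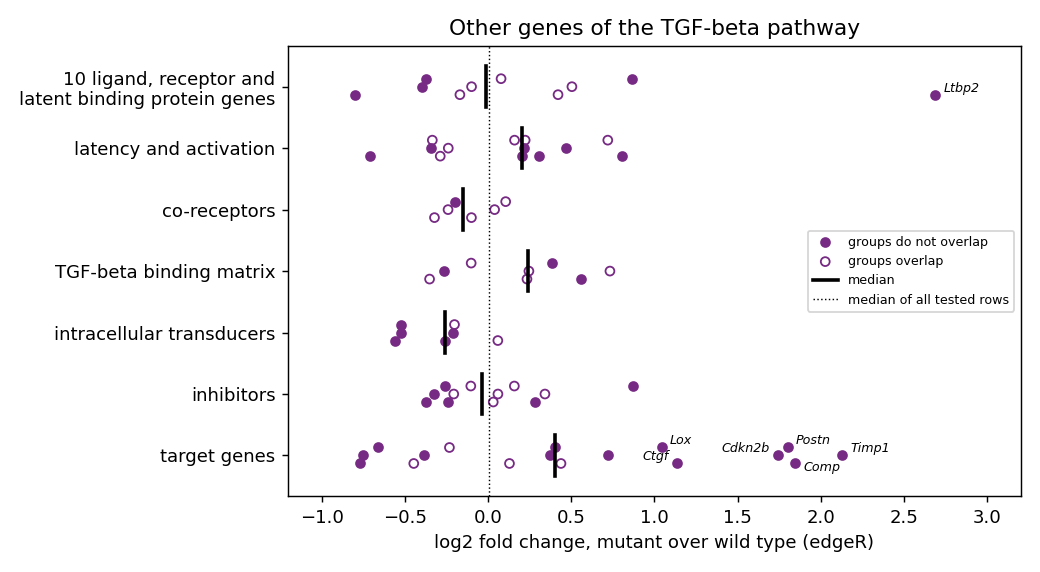
Log2 fold change (mutant over wild type, edgeR) of the 10 genes and of 6 lists of other pathway genes; filled points are genes whose groups do not overlap, bars are list medians and the dotted line is the median of all tested rows. The target genes reach from Col3a1 at -0.77 to Timp1 at 2.13, and list medians lie between -0.26 for the intracellular transducers and 0.40 for the targets.

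The wild-type hearts were less alike than the mutant hearts in these genes, except in Tgfb2. Its absolute log2 difference was 0.037 between wild types and 0.188 between mutants. The median absolute log2 difference between wild type 1 and wild type 2 over the 10 genes was 0.57, and 0.42 over all tested rows. Between mutant 1 and mutant 3 it was 0.11 over the 10 genes and 0.19 over all tested rows. Wild type 1 was above wild type 2 in Tgfb1, Tgfb3, Tgfbr2 and all 4 latent binding protein genes. It was below wild type 2 in Tgfb2, Tgfbr1 and Tgfbr3.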

How the data were processed

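RNA sequencing of the right ventricle gave 4 libraries, 2 Ezh2-deficient and 2 wild type, assigned by sample title. Libraries were made from polyadenylated RNA and treated with a duplex-specific nuclease, per the labels' protocols, so levels of abundant genes are compressed. TopHat 1.2.0, Cufflinks and mm9 are named in the submitters' processing notes. Not given in the sources used here were the counting rule, the use of strand and the annotation. The deposited table holds whole-number read counts per gene, which were tested, and the authors' CPM values, which equal reads over the column total and were only checked. Its starts are 0-based, checked on 13 of 13 mitochondrial genes, and are printed as 1-based positions.

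Counts were tested with edgeR 4.0.16 in R 4.3.3 (quasi-likelihood test, two-sided, filterByExpr, TMM, Benjamini-Hochberg over 16128 rows, no covariate), after a check on simulated data. The SE came from the F statistic. Alternatives were DESeq2 1.42.0, limma-voom (limma 3.58.1), other scalings and filters, leaving out each library, leaving out X, Y, mitochondrial and abundant rows, 1 row per locus, and a loess correction of GC content and transcript length. A fit on the same rows without that correction was chosen after seeing the data. The design text speaks of separate hearts, so p-values measure the spread between hearts. Names without a row were looked up as older symbols in a RefSeq gene table (GRCm38.p6). Transcript lengths are those of the longest coding transcript in GENCODE M21.

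The members and lists were chosen with earlier results of these data known. Besides the 10 genes and Ezh2, the text names per pathway list the called genes or else the 2 of smallest p with a mean of at least 1 CPM, and the 3 genes most like the member of smallest p. Genes outside this are markers or were chosen after their values were seen, as were Comp, Ctgf, Col1a1 and Col3a1.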

Additional observations from a re-analysis of the deposited data

How the results depend on the processing

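No member was called in the reported test, and directions held in all 15 alternatives for Tgfb2, Tgfb3, Tgfbr2, Tgfbr3, Ltbp1 and Ltbp2. Over all rows the 21 calls became 156 with total count scaling (76 higher, 80 lower, and a shift of the median of all rows by -0.28), 317 without a filter, 227 with DESeq2, 80 with the GC and length correction and 3 without X, Y, mitochondrial and abundant rows, and 67 to 3488 with 1 library left out. Of the 10 members 1, Ltbp2, was called with total count scaling, 1 without a filter, 1 with DESeq2 and 1 with the GC and length correction, and 1 to 5 with 1 library left out. Of the pathway genes, 3 were called with total count scaling, 4 without a filter, 4 with DESeq2 and 3 with the correction, and 2 to 21 with 1 library left out. The GC and length correction used 13127 rows; without it the same rows gave 14 calls. Directions turned for Ltbp3 with total count scaling (-0.20) and for Ltbp4 with the correction (0.11). With 1 library left out, estimates ran from -0.43 to 0.33 for Tgfb1, from -0.045 to 1.10 for Tgfbr1, from -0.16 to 0.36 for Ltbp3 and from -0.45 to 0.17 for Ltbp4. Where 1 heart remained in a group, its variation was taken from the other group. The cause of these changes was not tested. No paired analysis was possible because the groups share only 1 replicate number. The lowest member count was 33 reads, for Ltbp2 in wild type 2, so depth limits that gene most.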
